A study of Mus musculus with 32 samples.

Results

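The kidney cortex of male Alport mice fed nicotinamide riboside (NR) was compared with that of male Alport mice fed the same purified diet without it. Members were chosen by sex, genotype and diet: 8 of the 32 mice of the series, 4 on NR and 4 on vehicle, described across all 15500 genes with enough reads to be tested out of 32544 in the count table. The series holds 8 groups of 4 mice, covering both sexes, both genotypes and both diets. Alport mice were Col4a3-/- and control mice were Col4a3+/-, so the controls carried 1 disrupted allele and were not wild type, and all carried the Col4a3tm1Dec allele on a C57BL/6J background. At 10 weeks of age the food of every mouse was changed from chow to a purified diet, which in the NR groups contained 0.5% NR by weight, and the cortex was taken at 25 weeks. Mice of each group are called NR mouse 1 to 4 and vehicle mouse 1 to 4 by the replicate numbers of the labels, and the 4 male control mice on vehicle serve as the level without disease.

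Alport syndrome is an inherited disease of the type IV collagen network of the glomerular basement membrane, in which loss of the Col4a3 chain is followed by proteinuria, tubule damage, inflammation and fibrosis. NR is a form of vitamin B3 that cells phosphorylate with NR kinases and turn into NAD+, the electron carrier of fuel oxidation and the substrate of sirtuins. In the proximal tubule, fatty acids are the main fuel, and the nuclear receptor PPARα, with its coactivator PGC-1α, switches on genes of fatty acid uptake, oxidation and ketone body synthesis.

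Col4a3 (chromosome 1, 82586921 to 82722059, mm10) was measured at 67.6, 58.6, 56.0 and 61.7 CPM (counts scaled to library size) in NR mice 1 to 4 and at 56.5, 66.5, 54.6 and 83.2 CPM in vehicle mice 1 to 4, against a mean of 182 CPM (range 151 to 201) in the 4 control mice. Every Alport mouse lay below every control mouse, as labelled, and on vehicle the gene was lower in Alport than in control males by a log2 fold change of -1.40 ± 0.14 (SE; adjusted p = 6e-06, edgeR quasi-likelihood test with Benjamini-Hochberg adjustment). The table gives 1 count a gene, so reads of the altered exons could not be separated from the rest of the transcript. The 8 libraries held 18588229 to 23738769 counts, and mitochondrially encoded genes took 8.78%, 13.6%, 11.3% and 13.2% of the counts in NR mice 1 to 4 and 9.75% to 11.6% on vehicle. Proximal tubule transporters were abundant in all 8 cortices, with a summed level of 7798 to 20836 CPM on NR and 10378 to 16590 CPM on vehicle. The 12 adipocyte markers summed to 170.2 to 416 CPM on NR and 237 to 367 CPM on vehicle, 6 of them had enough reads to be tested, and Adipoq and Lep lay under 0.1 CPM in all 8 mice.

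Promoter windows of 3 genes are shown, 1 for each of 3 gene groups described here (PPARα targets, cholesterol synthesis and glutathione S-transferases), because each holds a short motif known for the matching regulator. The sequences are RefSeq's, build GRCm38.p6, from 250 bases before to 50 after the annotated start, 5′ to 3′ on the strand of the gene, with the matched bases in capitals. The motifs and genes were picked after the values had been seen. Motif letters were AGGNCANAGGNCA for a direct repeat as bound by PPARα with RXR, TCACNCCAC for a sterol regulatory element as bound by SREBP, and TGACNNNGCA for an antioxidant response element as bound by NRF2, each searched on both strands.
Fabp1, chr6:71199629-71199928 (+): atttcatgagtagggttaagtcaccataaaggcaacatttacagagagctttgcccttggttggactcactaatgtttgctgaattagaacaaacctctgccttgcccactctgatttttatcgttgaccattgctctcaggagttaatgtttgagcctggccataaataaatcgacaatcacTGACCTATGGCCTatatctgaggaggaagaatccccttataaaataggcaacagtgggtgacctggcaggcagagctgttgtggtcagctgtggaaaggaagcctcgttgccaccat
Hmgcs1, chr13:119690101-119690400 (+): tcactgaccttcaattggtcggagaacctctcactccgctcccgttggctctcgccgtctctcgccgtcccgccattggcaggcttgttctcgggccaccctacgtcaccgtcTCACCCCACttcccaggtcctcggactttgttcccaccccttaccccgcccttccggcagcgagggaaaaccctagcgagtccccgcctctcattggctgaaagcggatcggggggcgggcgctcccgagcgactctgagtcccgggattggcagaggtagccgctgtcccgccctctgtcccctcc
Gsta3, chr1:21240335-21240634 (+): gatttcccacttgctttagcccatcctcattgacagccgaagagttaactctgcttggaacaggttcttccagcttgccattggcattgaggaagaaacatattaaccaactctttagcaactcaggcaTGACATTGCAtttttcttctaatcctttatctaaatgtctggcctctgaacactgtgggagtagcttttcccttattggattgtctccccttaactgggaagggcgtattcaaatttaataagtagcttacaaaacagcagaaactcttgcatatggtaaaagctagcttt
In Fabp1 the match lay on the minus strand and began at position -67 from the start, in Hmgcs1 it began at -137 and in Gsta3 at -121, both on the plus strand. Of 32851 promoter windows of the same length, 0.381% held the first motif, 1.24% the second and 3.04% the third. Only Hmgcs1 held the sterol motif among the 18 of 26 cholesterol genes with a window, only Gsta3 the antioxidant motif among 21 of 23 glutathione S-transferases, and none of 17 mitochondrial β-oxidation genes held the direct repeat. Fabp1 is not in that last list, and the share in its own list was not counted. A match is a string of letters and was not tested as a binding site.

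By group means, male Alport mice on NR had higher levels of cholesterol synthesis genes and of some PPARα target genes and drug- and aldehyde-metabolising enzymes than those on vehicle. For the leading genes all 4 NR mice lay above all 4 vehicle mice. These genes were picked by their p in the same 8 mice, so the lack of overlap follows in part from the choice. Cyp4a14, a fatty acid ω-hydroxylase, was 36.8-fold higher by group means, Acot1, a cytosolic acyl-CoA thioesterase, 3.43-fold, and Aldh1a1, a retinaldehyde dehydrogenase, 3.14-fold. No gene passed the threshold when all 8 mice were fitted, however: 0 of 15500 genes had an adjusted p under 0.05 (0% of genes tested, edgeR), and the smallest was 0.274. At an unadjusted p under 0.05 there were 777 genes (5.01%), near the share of 0.05 that the threshold gives with no difference. All 4 NR mice lay above all 4 vehicle mice in 305 genes (1.97%) and below them in 225 (1.45%). With no difference, 4 against 4 mice part completely in a share of 0.0286, divided evenly between above and below. By DESeq2 62 genes passed (0.400%), of which 45 were higher and 17 lower, by limma-voom 0 passed, and with the 32 mice of the series fitted together 77 of 16469 passed (0.468%), 65 higher and 12 lower. Leaving out NR mouse 1 gave 86 higher (0.549%) and 288 lower genes (1.84%) of 15662, whereas leaving out any other mouse gave 0 or 1 gene. So the values below are descriptions of 8 mice unless a test that passed is named. The fit without NR mouse 1 was singled out because it changed the count most, so its adjusted p values are descriptive too. A p from DESeq2 is the more lenient. On simulated mice with the dispersion of these mice and no change, DESeq2 called 18 genes and edgeR 0. At a lower dispersion they called 8 and 1. With a log2 change of 1 in 200 genes, DESeq2 called 53 unchanged genes and edgeR 7 at the dispersion of these mice. Each was a single draw with the same dispersion in both groups, whereas the NR mice here spread more widely than the vehicle mice.

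Cyp4a14 (chromosome 4, 115486200 to 115496158, mm10) stood at 712, 2627, 3121 and 1322 CPM in NR mice 1 to 4 and at 81.5, 16.5, 69.1 and 44.4 CPM in vehicle mice 1 to 4. The lowest NR mouse was above the highest vehicle mouse, and the control mean was 46.2 CPM (range 16.6 to 119). The log2 fold change was 5.19 ± 0.66 (SE), with an adjusted p of 0.274 in edgeR and 3.47e-19 in DESeq2, and without NR mouse 1 it was 5.47 ± 0.58 (adjusted p = 0.0238, edgeR). Its neighbour in the same cytochrome P450 cluster, Cyp4a10, was at 442, 1305, 779 and 819.6 CPM on NR and 246, 96.1, 184 and 181 CPM on vehicle, again without overlap. Cyp4a31 stood at 235, 474, 324 and 349 CPM on NR and 122 to 182 CPM on vehicle. The Cyp4a genes are near-identical paralogs, and reads that match several may have been split between them by the authors' counting. Of 14 ω-hydroxylase genes tested, 8 were higher on NR, with a median log2 fold change of 0.16 (0.08 without NR mouse 1) against 0.01 over all genes. The 3 just named were those without overlap (1.97% of all genes lay above). Among the other Cyp4a genes, Cyp4a12a overlapped, at 4.91, 39.7, 49.2 and 59.9 CPM on NR and 4.24 to 51.3 CPM on vehicle.

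Among genes of fatty acid binding and activation some were higher in all 4 NR mice and others overlapped. Fabp1, the liver-type fatty acid binding protein whose promoter is printed above, was low in every cortex, at 6.07, 4.75, 15.4 and 3.18 CPM on NR and 1.01, 0.243, 1.26 and 0.653 CPM on vehicle. NR mouse 3 was highest and the groups did not overlap. Acot1 was at 119, 232, 297 and 112 CPM on NR and 41.1 to 68.9 CPM on vehicle, again without overlap, a log2 difference of 1.77 ± 0.33 (SE; adjusted p = 0.454 in edgeR and 0.000119 in DESeq2). Its levels may share reads with the near-identical Acot2. Vnn1, the pantetheinase of coenzyme A turnover, was at 127, 193, 190.1 and 156 CPM on NR and 73.8 to 96.5 CPM on vehicle. Acsl1, a long-chain acyl-CoA synthetase, overlapped: NR mouse 1 was at 167 CPM inside the vehicle range of 124 to 172, while NR mice 2 to 4 were at 475, 767 and 241 CPM. Pdk4, the kinase that turns off pyruvate dehydrogenase, was at 97.7, 64.2, 134 and 32.8 CPM on NR and 18.5 to 35.0 CPM on vehicle, where only NR mouse 4 overlapped. In the list of ketogenesis, lipid droplet and fasting genes, 21 of 26 were higher on NR and the median log2 fold change was 0.39. Of them 10 had an unadjusted p under 0.05 (5.01% of all genes). Among acyl-CoA thioesterases, synthetases and binding proteins, 15 of 26 were higher, with a median of 0.20 (0.30 without NR mouse 1). Of the 15, 3 did not overlap (1.97% of all genes lay above).

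Peroxisomal β-oxidation, which shortens very long fatty acids, differed at some steps. Ehhadh (chromosome 16, 21761285 to 21787834), its bifunctional enzyme, was at 538, 1454, 1419.8 and 1135 CPM on NR and 422, 381, 258 and 384 CPM on vehicle. No mouse overlapped, and the control mean was 798 CPM (range 709 to 948), so NR mice 2 to 4 were above every control mouse and NR mouse 1 below. On vehicle the gene was lower in Alport than in control males (log2 fold change -1.06 ± 0.15, SE; adjusted p = 8.07e-05, edgeR), and by NR in Alport males the log2 difference was 1.65 ± 0.33 (adjusted p = 0.454 with 8 mice, 0.0238 without NR mouse 1). Acaa1b, a peroxisomal thiolase with a close paralog in Acaa1a, was at 416, 1057, 626 and 794 CPM on NR and 255 to 382 CPM on vehicle. Of 18 peroxisomal genes tested 14 were higher on NR with a median log2 fold change of 0.32, and 4 rose in the fit without NR mouse 1 (0.549% of all genes). The same 18 genes had a median of -0.68 in vehicle Alport against vehicle control males. That comparison shares the 4 vehicle Alport mice with the NR comparison, so the values are set side by side only.

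Mitochondrial β-oxidation was higher on NR in every gene of the list but by little. All 21 genes of the carnitine shuttle and mitochondrial β-oxidation had a positive log2 fold change, with a median of 0.40 against 0.01 over all 15500 genes. Of them 7 had an unadjusted p under 0.05 (5.01% of all genes), and 0 passed adjustment either with 8 mice or without NR mouse 1. By mouse the mean of the list differed from the vehicle mean by -0.15, 0.84, 0.18 and 0.62 on the log2 CPM scale in NR mice 1 to 4, and the vehicle mice themselves ranged from -0.16 to 0.18. NR mice 2 and 4 lay well above that range, NR mouse 3 at its upper end and NR mouse 1 near its lower end. In vehicle Alport against control males the median was -0.61, with 20 of the genes lower past the threshold (24.0% of all genes). Acadl, long-chain acyl-CoA dehydrogenase, was at 271, 419.7, 318 and 392 CPM on NR and 216 to 265 CPM on vehicle, without overlap. Slc25a20, the carnitine-acylcarnitine carrier, also did not overlap, at 76.7, 104, 75.2 and 76.0 CPM on NR and 51.3 to 64.6 CPM on vehicle. Acadm, medium-chain acyl-CoA dehydrogenase, did overlap, at 309, 737, 408 and 796 CPM on NR and 342 to 508 CPM on vehicle. Cpt1a, the outer membrane carnitine palmitoyltransferase that gates the pathway, was at 389.6, 559.9, 369 and 466 CPM on NR and 379 to 452 CPM on vehicle, with a log2 fold change of 0.05 ± 0.18 (SE) whose sign turned when NR mouse 2 or vehicle mouse 3 was left out.

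The receptors above these targets differed less. Ppara, encoding PPARα itself, was at 39.2, 64.0, 49.2 and 67.0 CPM on NR and 51.2, 49.6, 41.7 and 62.4 CPM on vehicle, a log2 fold change of 0.09 ± 0.19 (SE). Ppargc1a, encoding PGC-1α, was at 42.4, 58.6, 64.1 and 60.3 CPM on NR and 44.7 to 53.3 CPM on vehicle. Both genes were lower in vehicle Alport than in control males, by log2 fold changes of -0.94 ± 0.12 (adjusted p = 2.8e-05) and -0.66 ± 0.09 (adjusted p = 4.55e-05, edgeR), and no NR mouse reached the control range of 89.5 to 114 CPM for Ppara. Of 18 PPAR receptors and cofactors 15 were higher on NR, but none had an unadjusted p under 0.05, and the median of 0.09 was 0.18 without NR mouse 1 and -0.0064 without NR mouse 4. The citric acid cycle list was higher in 24 of 25 genes and the nuclear-encoded respiratory chain list in 76 of 79, both with a median log2 fold change of 0.16 that became 0.32 without NR mouse 1. Their means by mouse were -0.39, 0.55, -0.22 and 0.53 for the citric acid cycle and -0.51, 0.70, -0.33 and 0.48 for the respiratory chain in NR mice 1 to 4. NR mice 1 and 3 were below all 4 vehicle mice in both lists and NR mice 2 and 4 above them, so the group medians stand between 2 pairs of mice that went opposite ways.

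**Figure D1:**
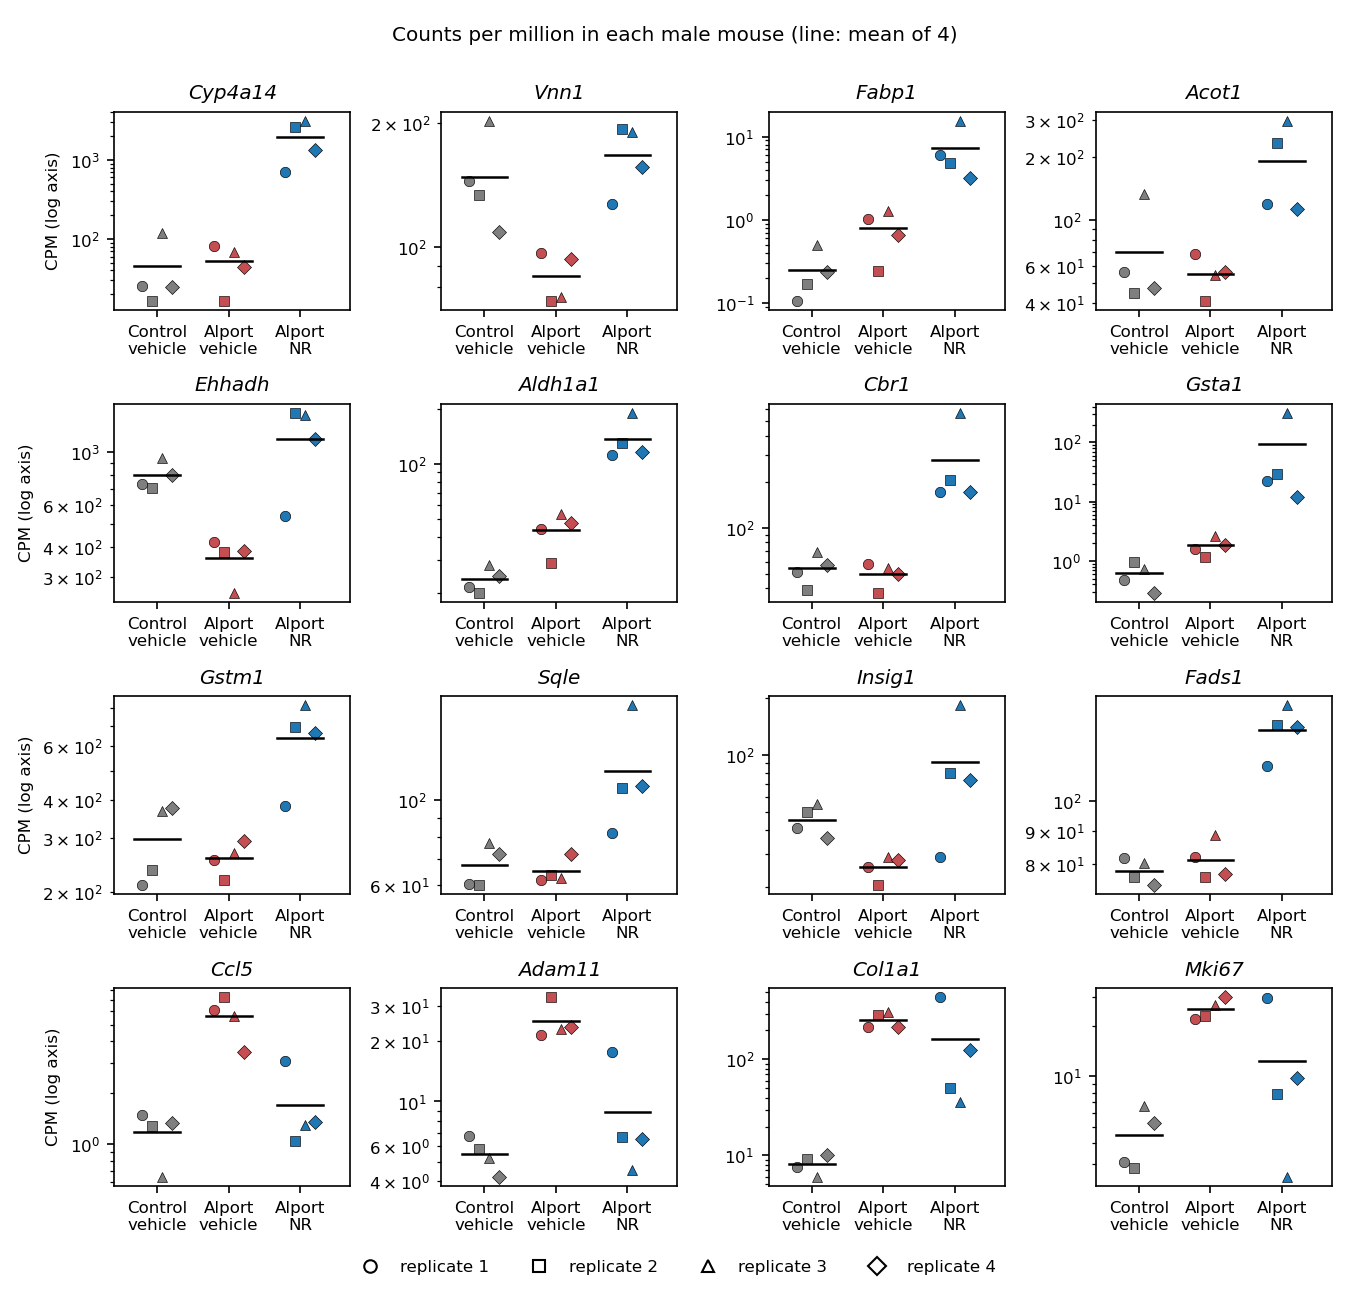
Level of 16 genes in each male mouse, in CPM on a log axis, for control mice on vehicle, Alport mice on vehicle and Alport mice on NR; the marker shape is the replicate number and the line the mean of 4 mice. For Cyp4a14 the NR mice run from 712 to 3121 CPM and the vehicle mice from 16.5 to 81.5 CPM without overlap, whereas for Col1a1 NR mouse 1 at 444 CPM lies above every vehicle mouse and the other NR mice, at 35.9 to 126 CPM, below.

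Some enzymes that conjugate or oxidise foreign and reactive compounds were higher in all 4 NR mice, while the glucuronosyltransferases as a list were not. Ugt1a2 (chromosome 1, 88200611 to 88220002), a glucuronosyltransferase, was at 139, 459.7, 382 and 121 CPM on NR and 33.6, 13.1, 27.8 and 26.8 CPM on vehicle, a log2 fold change of 3.43 ± 0.51 (SE; adjusted p = 0.274 in edgeR and 3.28e-10 in DESeq2). Ugt1a1 was at 42.2, 76.6, 55.6 and 26.3 CPM on NR and 7.59 to 17.8 CPM on vehicle, and Ugt1a10 at 729, 839, 1141 and 795 CPM on NR and 298 to 409 CPM on vehicle. The groups did not overlap for any of them. Ugt1a transcripts share all exons but the first, so their counts cannot be fully told apart. Of 15 glucuronosyltransferases 8 were higher, these 3 without overlap (1.97% of all genes lay above). The median was 0.03 (0.11 without NR mouse 1), and the list means were -0.20, 0.61, -0.17 and 0.59 in NR mice 1 to 4. Aldh1a1 (chromosome 19, 20492583 to 20643463) had similar levels in the 4 NR mice, at 113, 129.9, 189.6 and 117 CPM against 44.3, 29.0, 53.9 and 47.7 CPM on vehicle, a log2 fold change of 1.64 ± 0.23 (adjusted p = 0.274 in edgeR, 0.000223 in the fit of 32 mice). Unlike the β-oxidation genes it was already higher in vehicle Alport than in control males, by 0.97 ± 0.18 (adjusted p = 0.00132, edgeR).

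Glutathione S-transferases, which couple glutathione to electrophiles, were higher on NR in 20 of 22 genes tested, with a median log2 fold change of 0.44 (0.69 without NR mouse 1). Of them 10 had an unadjusted p under 0.05 (5.01% of all genes). Gsta1 (chromosome 9, 78230669 to 78242683) was at 22.3, 29.6, 314 and 11.8 CPM on NR and 1.58, 1.18, 2.67 and 1.87 CPM on vehicle. Its 51.8-fold ratio of means rested largely on NR mouse 3, yet each NR mouse was above each vehicle mouse. Gsta3, whose promoter is printed above, was at 99.3, 217, 213 and 199 CPM on NR and 59.0 to 88.4 CPM on vehicle, and Gstm1 at 382, 692, 819.5 and 664 CPM on NR and 219 to 293 CPM on vehicle. For these 2 genes NR mouse 1 was lowest of the NR mice and the groups did not overlap. Without NR mouse 1 5 of the list rose (0.549% of all genes), among them Gsta3 by 1.54 ± 0.16 and Gstm1 by 1.48 ± 0.16 (adjusted p = 0.0238 for each, edgeR). The Gsta and Gstm families each hold close paralogs, so reads may be shared within them.

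NRF2 targets, the antioxidant and reductase genes switched on by oxidative or electrophilic stress, were higher in 26 of 28 genes with a median log2 fold change of 0.64 that became 0.20 without NR mouse 3. The list mean was 0.25, 0.31, 1.49 and 0.38 above the vehicle mean in NR mice 1 to 4, and the vehicle mice ranged from -0.04 to 0.04. By this mean all 4 NR mice were above all 4 vehicle mice, and NR mouse 3 was far above the rest. The summed level of NR mouse 1, 7191 CPM, lay inside the vehicle range of 6790 to 8272 CPM. Of the 28 genes, 17 were above the vehicle mean in that mouse. Cbr1, a carbonyl reductase, was at 171, 205, 564 and 170.4 CPM on NR and 57.8, 37.3, 54.5 and 49.6 CPM on vehicle, and it was the 1 gene that passed when NR mouse 3 was left out (log2 fold change 1.86, adjusted p = 0.0496, edgeR). Nqo1, NAD(P)H quinone reductase, was at 78.8, 79.8, 298 and 114 CPM on NR and 40.4 to 61.6 CPM on vehicle. Hmox1, haem oxygenase, was at 41.9, 42.1, 314 and 38.2 CPM on NR and 27.3 to 48.1 CPM on vehicle, where only NR mouse 3 stood above the vehicle range. Gclc, of glutathione synthesis, was at 189.9, 193, 771 and 278 CPM on NR and 164 to 247 CPM on vehicle. Gsta4 and Srxn1, chosen after their values were seen, had the same form: Srxn1, which repairs peroxiredoxins, was at 86.5, 114, 576 and 103 CPM on NR and 69.5 to 88.1 CPM on vehicle, and Gsta4 at 51.4, 75.6, 424 and 51.3 CPM on NR and 15.4 to 22.4 CPM on vehicle.

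Cholesterol synthesis and uptake genes, targets of SREBP2, were higher on NR throughout the list. All 26 were higher on NR, with a median log2 fold change of 0.73. Of them 20 had an unadjusted p under 0.05 (5.01% of all genes) and 11 did not overlap (1.97% of all genes lay above). In the fit without NR mouse 1 10 rose past the threshold (0.549% of all genes). The list mean was 0.15, 0.84, 1.40 and 0.83 above the vehicle mean in NR mice 1 to 4, with vehicle mice between -0.09 and 0.11. The summed level of NR mouse 1, 1397.5 CPM, lay inside the vehicle range of 1263.5 to 1594 CPM. Of the 26 genes, 15 were above the vehicle mean in that mouse. Insig1, the sterol-sensing brake on SREBP, was at 28.8, 79.9, 183 and 73.9 CPM on NR and 25.6, 20.4, 28.7 and 27.8 CPM on vehicle, so NR mouse 1 was at the upper edge of the vehicle mice and NR mouse 3 was highest. Its log2 fold change was 1.82 ± 0.46 (SE; adjusted p = 0.724 in edgeR and 0.0138 in DESeq2). Sqle, squalene epoxidase, was at 81.9, 107, 177 and 109 CPM on NR and 61.9 to 72.3 CPM on vehicle. Hmgcs1, whose promoter is printed above, overlapped, at 314, 546, 453 and 639 CPM on NR and 280.2 to 466 CPM on vehicle. Fads1, a fatty acid desaturase, varied little within a group, at 113, 131, 141 and 130.3 CPM on NR and 76.4 to 88.6 CPM on vehicle, with a log2 fold change of 0.66 ± 0.11 (adjusted p = 0.336 in edgeR and 6.4e-06 in DESeq2). Of 23 genes of fatty acid synthesis and desaturation 21 were higher, with a median of 0.21.

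NAD genes themselves went in both directions. Of 18 genes of NAD salvage and NR phosphorylation 9 were higher and 9 lower, with a median log2 fold change of 0.04 (0.15 without NR mouse 1). Nmrk1, the NR kinase, was at 50.9, 76.5, 54.4 and 75.4 CPM on NR and 64.2 to 71.7 CPM on vehicle, a log2 fold change of -0.08 ± 0.15 (SE) whose sign turned without NR mouse 1. Nampt, the rate-limiting enzyme of salvage from nicotinamide, was at 116, 203, 254 and 178 CPM on NR and 116 to 138 CPM on vehicle. NR mouse 1 lay at the lower edge of the vehicle mice and the other 3 above them, and without NR mouse 1 Nampt rose by 0.71 ± 0.14 (adjusted p = 0.0454, edgeR). Pnp, the phosphorylase that splits NR and other nucleosides, was at 93.0, 103, 114 and 93.1 CPM on NR and 74.1 to 82.9 CPM on vehicle, without overlap. De novo synthesis from tryptophan gave 3 of 9 genes higher and NAD-consuming enzymes 8 of 15, with medians of -0.05 and 0.02. Without NR mouse 1 both medians changed sign, to 0.14 with 7 of 9 higher and to -0.078 with 6 of 15 higher. In that fit 1 of the consuming enzymes fell past the threshold, against 1.84% of all genes. Sirt3, the mitochondrial sirtuin, was at 42.2, 89.4, 40.2 and 75.4 CPM on NR and 48.6 to 67.5 CPM on vehicle, with NR mice 1 and 3 below and NR mice 2 and 4 above all vehicle mice. On vehicle Nmrk1, Nampt and Sirt3 were lower in Alport than in control males, by log2 fold changes of -0.87, -0.87 and -0.92 (adjusted p = 0.000569, 1.77e-06 and 7.86e-06, edgeR).

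Some genes were lower on NR in all 4 mice, a form that 225 of 15500 genes took (1.45%). That share is close to what the order of the mice alone gives with no difference. Those named here were picked by their p in the same mice, so their lack of overlap is a description. Cep72, a centrosomal protein, was at 1.69, 1.68, 1.56 and 1.39 CPM on NR and 3.28, 2.84, 3.78 and 3.31 CPM on vehicle, and passed in DESeq2, in the fit of 32 mice and without NR mouse 1 (log2 fold change -1.08 ± 0.21, SE, with 8 mice). Ccl5, a chemokine that draws T cells and monocytes, was at 3.07, 1.04, 1.30 and 1.34 CPM on NR and 6.12, 7.26, 5.65 and 3.48 CPM on vehicle, and Adam11 at 17.7, 6.66, 4.57 and 6.54 CPM on NR and 21.4, 33.1, 22.9 and 23.5 CPM on vehicle. In both NR mouse 1 was highest of its group and still below every vehicle mouse, and both passed in the same 3 fits. Mdk, the growth factor midkine, was at 32.1, 18.6, 15.4 and 26.3 CPM on NR and 42.1 to 58.0 CPM on vehicle. Fzd7, a Wnt receptor, was even in both groups, at 31.0, 28.0, 29.5 and 31.7 CPM on NR and 39.2 to 40.0 CPM on vehicle. In all, 34 genes passed in DESeq2, in the 32-mouse fit and without NR mouse 1 alike, 31 higher and 3 lower, the 3 lower being Cep72, Ccl5 and Adam11. These 3 fits share the vehicle mice and NR mice 2 to 4 and are not independent.

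The NR mice were far less alike than the vehicle mice. The SD of log2 CPM over 4 mice had a median of 0.333 on NR and 0.173 on vehicle, and it was larger on NR in 12823 of 15500 genes (82.7%). An SD above 1 was seen in 1012 genes on NR and 144 on vehicle. The biological coefficient of variation, the spread between mice beyond counting error, was 0.338 on NR and 0.152 on vehicle, a ratio of 2.22 that stayed between 1.91 and 2.43 when each mouse was left out in turn. In the other 6 groups it lay between 0.108 and 0.233, so the male Alport mice on NR had the widest spread of the 8 groups, although no test of that order was made. Pairwise distances, as the root mean square difference of log2 CPM, were 0.481 to 0.860 among NR mice and 0.391 to 0.495 among vehicle mice. The closest NR pair, mice 2 and 4 at 0.481, was as close as vehicle mice were, and the other 5 NR pairs lay at 0.775 or more. NR mouse 1 was 0.469 to 0.649 from the vehicle mice and 0.809 to 0.860 from the other NR mice. NR mouse 1 was the farthest from its group mean in 37.7% of genes and NR mouse 3 in 29.4%, against 17.5% for NR mouse 2 and 15.4% for NR mouse 4.

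**Figure D2:**
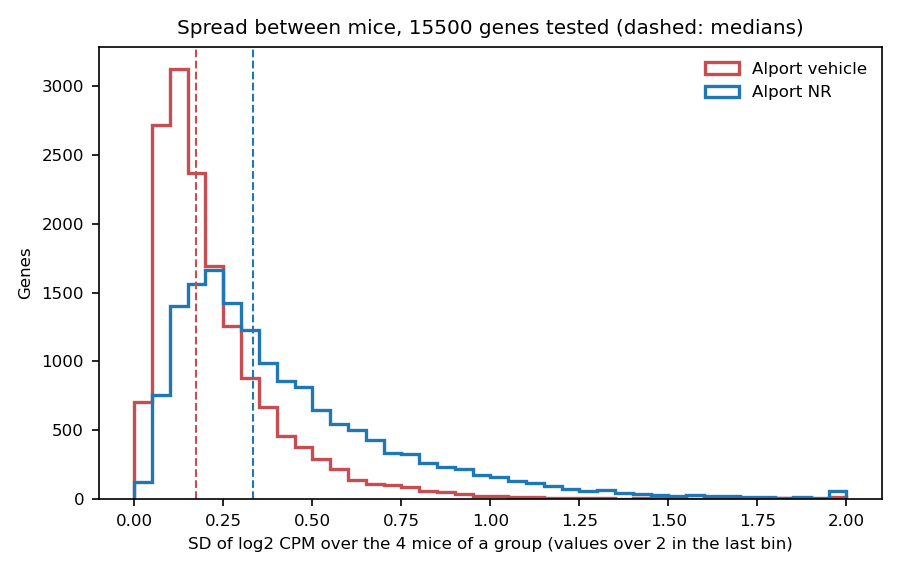
Histogram of the SD of log2 CPM over the 4 mice of each group, in log2 units on the x axis and number of genes on the y axis, for 15500 genes in male Alport mice on NR and on vehicle; dashed lines are the medians. The NR distribution is shifted to the right, with a median of 0.333 against 0.173.

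Principal component 1 of the 8 mice (36.9% of variance) placed NR mouse 1 at 39.7 beside the vehicle mice, which lay between 6.67 and 30.3, and NR mice 2, 3 and 4 at -43.7, -49.1 and -26.1. The group means were -19.8 ± 40.9 on NR and 19.8 ± 9.79 on vehicle (SD, n = 4 each), and the difference of -39.6 had a two-sided exact permutation p of 0.143, where 0.0286 is the smallest that 4 against 4 mice can give. Component 2 (31.6%) divided the NR mice otherwise, with NR mice 1 and 3 at 32.8 and 60.7, NR mice 2 and 4 at -26.3 and -33.2, and the vehicle mice between -23.5 and 4.45 (exact permutation p = 0.486). NR mice 2 and 4 lay near each other on both components, and NR mice 1 and 3 lay apart from them and from each other.

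Female mice, which share no animal with the males, gave a scale for each NR mouse. Each male was projected on the log2 difference between vehicle Alport and vehicle control females (15313 genes), with 0 at the mean of the male controls and 1 for a difference as large as that of the females. Vehicle Alport males stood at 0.897 to 1.13 and control males between -0.018 and 0.036. NR mice 1 to 4 stood at 1.31, 0.564, 0.717 and 0.625, so NR mouse 1 was beyond every vehicle mouse and the other 3 short of them. Of 3718 genes higher in Alport females (3760 of 15709 passed there, 23.9%), 85.4% were above the vehicle mean in NR mouse 1, against 11.4%, 35.3% and 9.36% in NR mice 2 to 4 and 21.2% to 74.4% in single vehicle mice. Of 3394 genes lower in Alport females (3419 passed there, 21.8%), 19.8%, 84.6%, 45.1% and 89.6% were above the vehicle mean in NR mice 1 to 4. Single vehicle mice ranged from 19.2% to 78.3%, so NR mice 1 and 3 lay inside the vehicle range for these genes. On the second scale, the NR difference of female Alport mice (15344 genes), vehicle males lay between -0.084 and 0.109 and NR mice 1 to 4 at -0.188, 0.840, 0.991 and 0.629. Both scales use the same vehicle Alport females, whose noise enters them with opposite signs, so the positions on them are not independent. When the scale was limited to the 71 genes that passed in females, NR mouse 1 was at 0.443, above all vehicle mice, and the others at 0.774, 1.18 and 0.615.

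**Figure D3:**
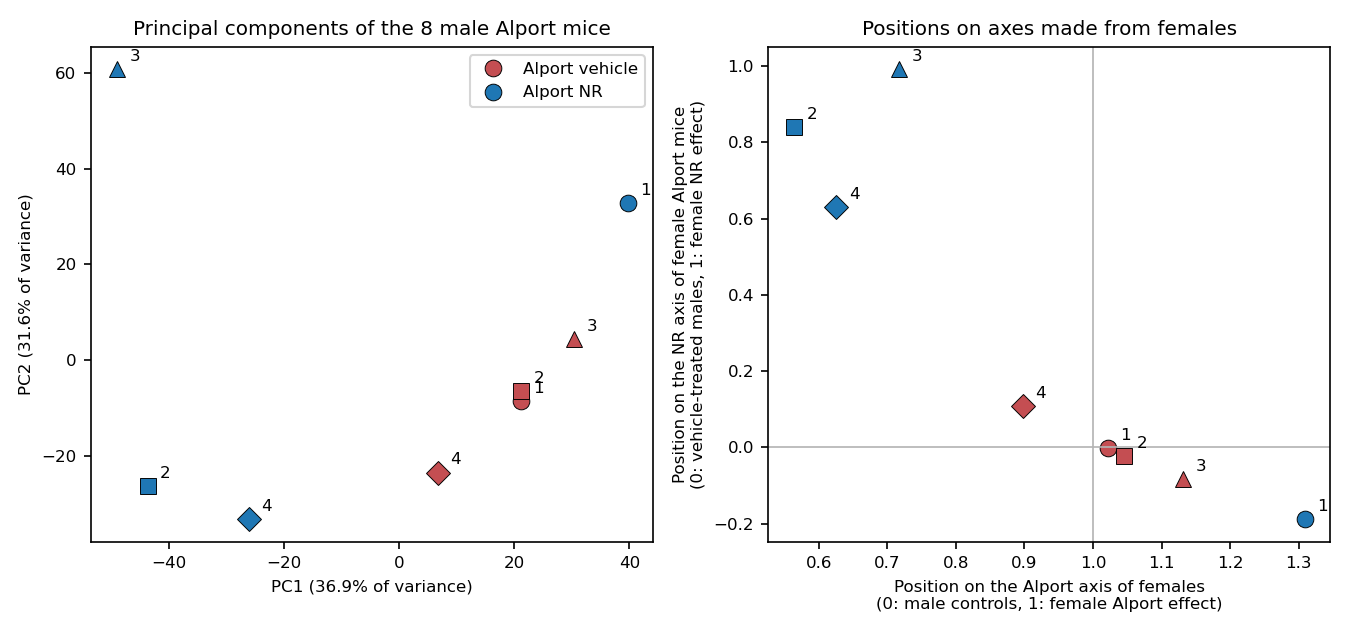
Left, positions of the 8 male Alport mice on principal components 1 and 2 of log2 CPM; right, each male mouse on the Alport axis of females (x, 0 for control and 1 for Alport level) and the NR axis of female Alport mice (y), both without unit. NR mouse 1 lies at 1.31 on x and -0.188 on y, apart from NR mice 2 to 4 at 0.564 to 0.717 on x and 0.629 to 0.991 on y. Both axes use the same vehicle Alport females and are not independent.

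The list means by mouse fell into 3 forms on NR. In NR mouse 1 the injury, matrix and macrophage lists were above every vehicle mouse (0.60, 0.70 and 0.85 log2 above the vehicle mean) and the proximal tubule list was below (-0.57). In NR mice 2 and 4 the same lists were lower (injury -0.57 and -0.76, matrix -1.17 and -0.76, macrophage -0.93 and -0.82) and the proximal tubule list higher (0.46 and 0.50). NR mouse 3 had the lowest matrix and macrophage lists of all (-1.30 and -1.33) with an injury list near the vehicle mean (-0.06), the lowest proximal tubule list (-0.83), and the highest NRF2 (1.49), cholesterol (1.40) and ATF4 lists (1.28). Other measures moved with these forms. The red blood cell list was at -2.04, 1.68, -2.52 and 1.55 in NR mice 1 to 4 and -0.95 to 0.47 on vehicle, with the haemoglobin gene Hbb-bs at 25.8, 436, 14.5 and 442 CPM on NR and 64.3 to 207 CPM on vehicle. Its summed level was 66.7 to 1250 CPM on NR and 177 to 527 CPM on vehicle. Genes with transcripts of up to 1000 nt (780 genes) differed from the vehicle mean by medians of -0.18, 0.35, -0.16 and 0.15 in NR mice 1 to 4. The mitochondrial share was likewise lowest in NR mouse 1 and highest in NR mice 2 and 4. Their part in the results was not tested.

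**Figure D4:**
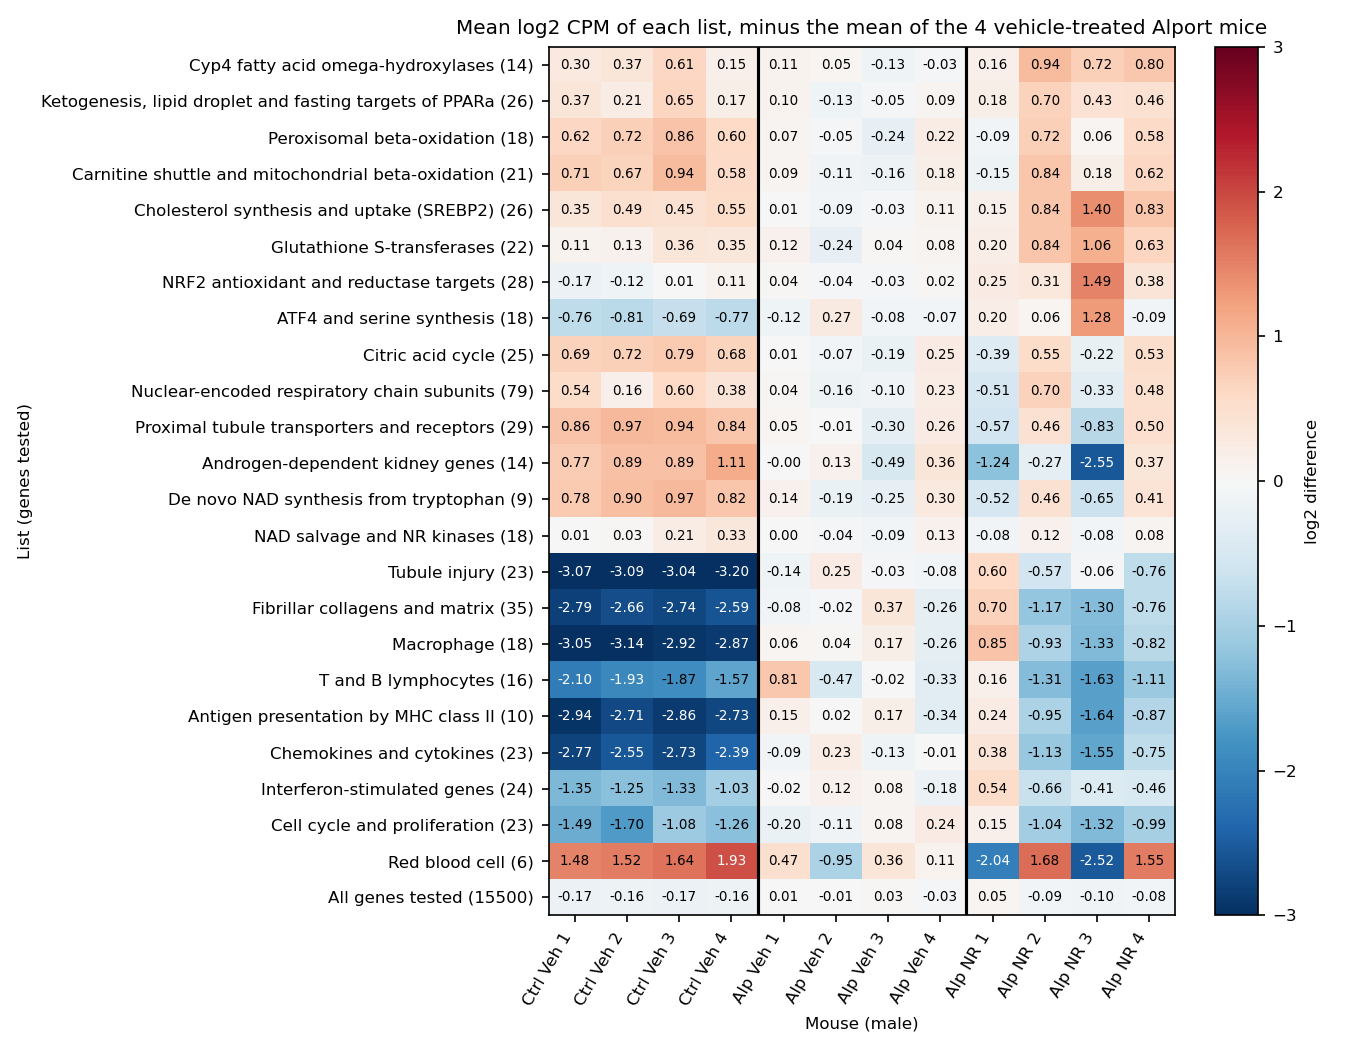
Heat map of the mean log2 CPM of 23 gene lists and of all genes in each of 12 male mice, as the difference from the mean of the 4 vehicle Alport mice in log2 units. Cholesterol genes are above that mean in all 4 NR mice, whereas matrix and macrophage genes are above it in NR mouse 1 (0.70 and 0.85) and below it in NR mice 2 to 4.

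For fibrosis, inflammation and cell division the result turned on 1 mouse. With all 8 mice 31 of 35 matrix genes were lower on NR with a median log2 fold change of -0.43, and 0 passed. Without NR mouse 1 13 fell past the threshold (1.84% of all genes fell) and the median was -1.07. Col1a1 (chromosome 11, 94936224 to 94953042), the main fibrillar collagen, was at 444, 49.9, 35.9 and 126 CPM on NR and 217, 288, 309.7 and 219 CPM on vehicle, with a control mean of 8.23 CPM. Col3a1 was at 461, 68.4, 37.7 and 131 CPM on NR and 241 to 390.0 CPM on vehicle, and Fn1, fibronectin, at 334, 54.9, 29.7 and 97.5 CPM on NR and 154 to 203 CPM on vehicle. In each of them NR mouse 1 was above all vehicle mice and NR mice 2 to 4 below all vehicle mice, yet above the control means of 19.2 and 18.8 CPM. The log2 fold change of Col1a1 was -0.68 ± 0.68 (SE; adjusted p = 0.945) with 8 mice and -1.88 ± 0.41 (adjusted p = 0.0538, edgeR) without NR mouse 1. That of Col3a1 was -0.86 ± 0.65 and, without NR mouse 1, -1.99 ± 0.40 (adjusted p = 0.0454). Lum, a small proteoglycan of the collagen fibre, was at 4.61, 2.66, 1.0 and 1.75 CPM on NR and 4.34 to 13.2 CPM on vehicle, so that NR mouse 1 lay inside the vehicle range and not above it. In vehicle Alport against control males 4091 genes were higher (26.8%) and 3674 lower (24.0%) of 15286, and 34 of the 35 matrix genes were among the higher ones.

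Macrophage markers were lower in 16 of 18 genes with 8 mice (median log2 fold change -0.29). Without NR mouse 1 8 fell (median -1.0), in a fit where 1.84% of all genes fell. Their summed level ranged from 308 to 1465 CPM on NR and 713 to 983 CPM on vehicle. Adgre1, encoding F4/80, was at 48.4, 12.2, 6.64 and 17.8 CPM on NR and 24.4 to 36.4 CPM on vehicle, and Csf1r, the receptor for macrophage growth factor, at 148, 43.8, 33.6 and 62.7 CPM on NR and 77.8 to 106 CPM on vehicle. MHC class II genes, which present antigen, were lower in all 10 (median -0.59), 5 of which fell without NR mouse 1 (1.84% of all genes, list median -0.98). Cd74, the invariant chain, was at 1112, 461, 464 and 469 CPM on NR and 866, 859.8, 919 and 703 CPM on vehicle, where NR mice 2 to 4 were within a few CPM of each other. Lymphocyte genes were lower in 15 of 16 with a median of -0.89, chemokines and cytokines in 22 of 23 with -0.44 and complement genes in 12 of 15 with -0.17. Without NR mouse 1 these medians were -1.41, -1.15 and -0.81, and 1, 6 and 2 genes fell, against 1.84% of all genes. The lymphocyte reference was uneven: the list summed to 135 CPM in vehicle mouse 1 and to 44.6, 48.1 and 40.4 CPM in vehicle mice 2 to 4. In NR mice 1 to 4 it summed to 65.3, 18.9, 17.2 and 20.4 CPM. Cd3e of the T cell receptor complex was low throughout, at 0.334 to 1.38 CPM on NR and 0.871 to 3.0 CPM on vehicle, while Igha, the immunoglobulin A chain, was at 123, 20.4, 8.76 and 8.42 CPM on NR and 45.4 to 96.2 CPM on vehicle. In whole cortex, fewer cells of a type and less RNA per cell cannot be told apart.

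Cell cycle genes were lower in 21 of 23 with a median log2 fold change of -0.80, 6 at an unadjusted p under 0.05 (5.01% of all genes). Without NR mouse 1 9 fell (1.84% of all genes), with a list median of -1.22. Mki67, a mark of cycling cells, was at 29.6, 7.82, 2.49 and 9.85 CPM on NR and 22.1 to 29.8 CPM on vehicle. Top2a, topoisomerase of dividing cells, was at 23.7, 8.51, 5.90 and 9.36 CPM on NR and 16.6 to 24.1 CPM on vehicle, and without NR mouse 1 it fell by 1.43 ± 0.20 on the log2 scale (adjusted p = 0.0254, edgeR). NR mouse 1 lay within the vehicle range for both genes or at its edge, and the other 3 lay below. Tubule injury genes were higher in 11 of 23 with a median of -0.05. Without NR mouse 1 they were higher in 7 of 23 with a median of -0.39, and 2 fell, against 1.84% of all genes. Havcr1, kidney injury molecule 1, was at 119, 93.1, 177 and 62.3 CPM on NR and 113 to 281 CPM on vehicle, and Lcn2, encoding NGAL, at 137, 42.5, 128 and 35.6 CPM on NR and 55.2 to 69.4 CPM on vehicle. NR mice 1 and 3 were above and NR mice 2 and 4 below every vehicle mouse for Lcn2. Vcam1, an adhesion molecule of injured tubules and vessels, was at 305, 114, 34.2 and 130.0 CPM on NR and 228 to 352 CPM on vehicle.

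The 86 higher and 288 lower genes called without NR mouse 1 were then read in that mouse, which the fit had not used, though it shares the vehicle mice with it. Of the 86 higher genes NR mouse 1 was above the vehicle mean in 61 (70.9%), above all 4 vehicle mice in 43 and below all 4 in 14, with a median log2 difference of 0.24 against 0.98 for the mean of the other 3. Of the 288 lower genes it was above the vehicle mean in 241 (83.7%), above all 4 vehicle mice in 192 and below all 4 in 25, with a median of 0.46 against -1.13. Over all 15500 genes it was above the vehicle mean in 54.2%. The same vehicle mice helped to choose the genes, which biases the values toward the called direction, so the share over all genes is no reference for them and the values are a description.

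Lists of other cell types of the cortex did not all part the NR mice alike. Proximal tubule transporters and receptors were higher in 15 of 29 genes with a median log2 fold change of 0.00, and without NR mouse 1 in 22 of 29 with a median of 0.16. In vehicle Alport against control males 26 of them were lower past the threshold (24.0% of all genes), with a median of -0.84. Slc34a1, the phosphate transporter of the proximal tubule, was at 1729.6, 5367, 1080.0 and 4922 CPM on NR and 3322, 3608, 2281 and 4108 CPM on vehicle. NR mice 1 and 3 were below and NR mice 2 and 4 above every vehicle mouse, none reached the control range of 6673 to 8293 CPM, and the sign of the log2 fold change of -0.03 turned when single mice were left out. Androgen-dependent genes, which in male mice are high in the proximal tubule, were lower in 12 of 14 (median -0.42), with list means of -1.24, -0.27, -2.55 and 0.37 in NR mice 1 to 4. Kap, kidney androgen-regulated protein, was at 902, 3839, 154 and 6384 CPM on NR and 3444 to 6490.1 CPM on vehicle, against a control mean of 12468 CPM. Slco1a1, an organic anion transporter, was at 1.15, 13.5, 0.594 and 49.2 CPM on NR and 16.3 to 161 CPM on vehicle. Podocyte genes were lower in 13 of 16 with a median of -0.18 (-0.29 without NR mouse 1), and the list means of 0.02, -0.19, -0.38 and -0.26 in NR mice 1 to 4 stood against -0.28 to 0.34 on vehicle. Of 22 genes of the loop of Henle, distal tubule and collecting duct 15 were higher with a median of 0.08. Without NR mouse 1 19 were higher with a median of 0.21, and 3 rose (0.549% of all genes). The list means were -0.63, 0.40, 0.15 and 0.33 in NR mice 1 to 4. Scnn1a, the epithelial sodium channel subunit, was at 97.2, 163, 163 and 129 CPM on NR and 74.4 to 89.0 CPM on vehicle, without overlap. Endothelial genes were higher in 11 of 18 with a median of 0.01, and the list means of 0.13, -0.08, 0.09 and -0.12 lay within the vehicle range of -0.19 to 0.29.

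NR mouse 3 carried a further set of genes that the other NR mice did not. ATF4 and serine synthesis genes, which respond to amino acid and mitochondrial stress, were higher in 17 of 18 with a median log2 fold change of 0.50 (0.02 without NR mouse 3), and the list mean was 0.20, 0.06, 1.28 and -0.09 in NR mice 1 to 4 and -0.12 to 0.27 on vehicle. Atf4 was at 84.0, 88.1, 206 and 79.7 CPM on NR and 71.1 to 91.4 CPM on vehicle, and Phgdh, the first enzyme of serine synthesis, at 17.4, 9.67, 67.7 and 10.9 CPM on NR and 14.4 to 21.8 CPM on vehicle. Psat1, the next enzyme, was higher more widely, at 55.6, 76.6, 106 and 57.3 CPM on NR and 30.1 to 56.5 CPM on vehicle. Gdf15 and Cdkn1a, a stress-induced cytokine and the cell cycle inhibitor p21, chosen after their values were seen, were at 29.8, 10.5, 99.0 and 10.7 CPM and at 24.2, 16.5, 113 and 11.1 CPM on NR. On vehicle they lay at 11.5 to 19.2 and 12.5 to 22.1 CPM. NR mouse 3 was the only one far above vehicle in both.

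NR was also given to female Alport and male control mice, and these comparisons share no mouse with that of male Alport mice. In female Alport mice 60 genes rose (0.382%) and 12 fell (0.0764%) of 15712, and in male control mice 437 rose (2.97%) and 217 fell (1.48%) of 14696 (edgeR). No gene had a different NR response by sex among 16189 tested in Alport mice (0%) or by genotype among 15800 tested in males (0%) at an adjusted p under 0.05 in edgeR, where 361 and 1395 genes had an unadjusted p under 0.05. DESeq2 called 1 gene by sex, Ugt1a2 (0.00618%), and 20 by genotype (0.127%). Cyp4a14 had log2 fold changes of 5.19 ± 0.66 in male Alport, 3.02 ± 0.43 in female Alport and 5.89 ± 0.80 in male control mice, and Acot1 of 1.77 ± 0.33, 1.93 ± 0.24 and 2.47 ± 0.51 (SE, n = 4 against 4 each). Both rose past the threshold in the females (adjusted p = 0.0201 and 0.0131) and controls (adjusted p = 0.0167 and 0.0459, edgeR). Fabp1, Ehhadh, Aldh1a1, Cbr1 and Gstm1 also rose in both, and the 3 log2 fold changes of Cbr1 were 2.47, 2.26 and 3.22. The difference in the response of Cbr1 between male and female Alport mice was 0.24 ± 0.54 (SE), an error that leaves room for a sizeable difference in either direction.

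**Figure D5:**
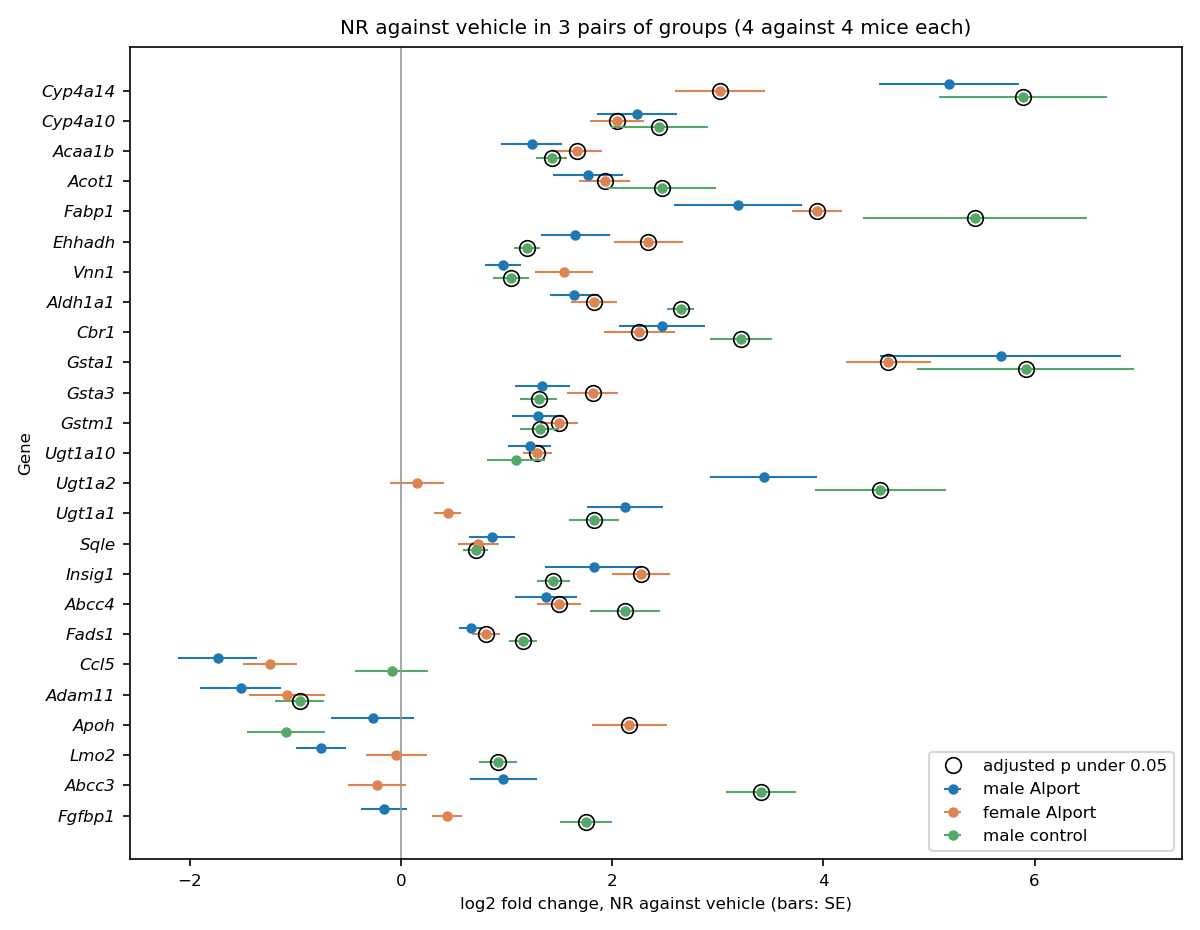
Log2 fold change (NR against vehicle, with its SE as a bar) of 25 genes in male Alport, female Alport and male control mice, 4 against 4 mice each; rings mark an adjusted p under 0.05 in edgeR. No gene is ringed in male Alport mice, and Cyp4a14 stands at 5.19, 3.02 and 5.89 in the 3 comparisons.

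The gene that came nearest to a difference by sex was Ugt1a2, at 3.43 ± 0.51 in male and 0.15 ± 0.26 in female Alport mice, a difference of 3.31 ± 0.59 (SE; unadjusted p = 4.64e-05, adjusted p = 0.751 in edgeR and 5.97e-05 in DESeq2). In male control mice it was 4.54 ± 0.62 (adjusted p = 0.0171). Apoh, a plasma glycoprotein that binds phospholipids, went the other way, at -0.27 ± 0.39 in males and 2.16 ± 0.35 in females (interaction in edgeR, unadjusted p = 0.000772, adjusted p = 1). By genotype the smallest p belonged to Fgfbp1, a carrier of fibroblast growth factors, at -0.16 ± 0.22 in Alport and 1.75 ± 0.24 in control males, a difference of -1.93 ± 0.32 (unadjusted p = 1.86e-05, adjusted p = 0.293). C3, the central complement protein, was at 2429, 939, 812 and 717 CPM in NR mice 1 to 4 and 1191 to 1371 CPM on vehicle, a log2 fold change of -0.05 ± 0.38, whereas it rose by 3.19 ± 0.60 in control males (adjusted p = 0.0371), from a vehicle mean of 22.9 CPM (interaction adjusted p = 0.395). Without NR mouse 1, 784 of 15942 genes (4.92%) had a genotype interaction past the threshold in edgeR, 727 of them with the lower response in Alport mice.

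By list, the 3 comparisons stood as follows. The median log2 fold change of mitochondrial β-oxidation was 0.40 in male Alport, 0.54 in female Alport and 0.34 in male control mice, with 0, 4 and 6 genes that rose. For cholesterol synthesis and uptake it was 0.73, 0.81 and 0.56, with 0, 3 and 15 that rose, and for NRF2 targets 0.64, 0.74 and 0.53, with 0, 6 and 8. Glutathione S-transferases gave 0.44, 0.59 and 0.62, with 0, 7 and 9 that rose. The signs of the medians parted in the lists of disease. Matrix genes had medians of -0.43, -0.43 and 0.65 and macrophage genes of -0.29, -0.73 and 0.81, with 11 and 4 genes that rose in control males. These differences between groups were tested gene by gene only, and 0 genes passed in edgeR.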

How the data were processed

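Kidney cortex poly(A) RNA of 32 mice was sequenced, 4 mice in each of 8 groups, taken from the labels. The authors aligned reads with BioJupies to mm10 and deposited raw counts per gene symbol, used here for every result, and a table of log10 values of CPM plus 1, which the authors made from the same counts (largest difference from a recomputation 8.88e-16 over 32544 genes) and which served only as a check. The aligner version, annotation and strand setting are not given in the sources used here, so overlapping and antisense genes, like close paralogs, may share reads.

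Genes were kept by filterByExpr (minimum count 10), scaled by TMM and tested with the quasi-likelihood F test of edgeR 4.0.16 in R 4.3.3 on the 8 male Alport mice, with Benjamini-Hochberg adjustment over all genes tested (threshold 0.05). The SE was taken from the fold change and F. CPM per mouse used TMM over 32 mice, and log2 CPM a prior count of 2. Other comparisons were fitted the same way, each on its own groups (8 mice) or on 4 groups for interactions. DESeq2 1.42.0, limma-voom (limma 3.58.1), other filters and scalings, larger sets of mice, a replicate block and leaving out each mouse were the alternatives. The fits of edgeR, limma-voom and DESeq2 were tested on simulated counts of the male Alport comparison. Python 3.11.15 with pandas 2.3.3, numpy 2.4.6 and scipy 1.17.1 made the tables and permutation tests. No pair of libraries of a group was alike within sampling noise.

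The members and the 40 gene lists were chosen with earlier results of these data known, and lists are described by counts and medians, without a test. Genes named are the 15 per direction with the smallest p at a mean of at least 1 CPM, the first 3 and the 3 with the smallest p of each list, Col4a3, the 5 with the smallest p of each interaction, the extremes of NR mouse 1 and the leading calls of DESeq2 and of the fit without NR mouse 1. Others are named as chosen after their values were seen. Samples of a group are numbered replicates and were taken as separate mice. Some genes that the rule names are not reported here.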

Additional observations from a re-analysis of the deposited data

Results flagged for a closer look

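In 27 of 202 groups (101 genes named or considered, 4 mice on NR and 4 on vehicle; 13.4%) 1 mouse stood apart from the other 3, its gap to the nearest as a share of the range of the group exceeding Dixon's critical value for 4 samples. Chance sets apart about 1 group in 20, many of these genes were chosen for their values, and over all 15500 genes the share was 7.54% on NR (1169 genes, of which NR mouse 1 in 681, NR mouse 3 in 314, NR mouse 4 in 94 and NR mouse 2 in 80) and 5.46% on vehicle (846 genes).

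NR mouse 3 stood high for genes of the antioxidant response: Cbr1 (564.2 CPM), Cbr3 (168.5 CPM), Nqo1 (298.4 CPM), Gclc (771.2 CPM), Hmox1 (314.0 CPM), Srxn1 (575.7 CPM), Gsta1 (314.2 CPM) and Gsta4 (423.8 CPM). The same mouse stood high for the lipid droplet protein Plin2 (647.7 CPM), for Atf4 (205.7 CPM), for Phgdh (67.74 CPM) and for Cdkn1a (113.2 CPM). Cbr3, a second carbonyl reductase, was at 16.9, 8.98 and 13.1 CPM in NR mice 1, 2 and 4 and 3.77 to 5.59 CPM on vehicle, and Plin2 at 195, 157 and 130.1 CPM and 114 to 139 CPM.

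NR mouse 1 stood high for genes of inflammation and matrix: Ccl5 (3.071 CPM), Cd74 (1112 CPM), H2-Aa (423.9 CPM), Igha (123.5 CPM), C3 (2429 CPM), Adam11 (17.7 CPM) and Ltbp2 (154.7 CPM), and low for Gsta3 (99.28 CPM). Ltbp2, a microfibril protein, was at 15.3, 4.53 and 28.0 CPM in NR mice 2 to 4 and 54.9 to 76.6 CPM on vehicle. NR mouse 2 stood high for Slc25a20 (103.7 CPM).

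Among vehicle mice, mouse 3 stood low for Pnp (74.05 CPM) and high for Dbp (168.3 CPM). Mouse 2 stood high for Havcr1 (281 CPM) and for the hyaluronan receptor Cd44 (64.96 CPM) and low for Gsta4 (15.38 CPM), and mouse 1 stood low for the mitotic factor Foxm1 (4.658 CPM).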

How the results depend on the processing

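The count of genes past the threshold in male Alport mice, 0 with 8 mice in edgeR, was 62 in DESeq2, 8 in a fit of the 16 males and 77 in a fit of 32 mice, and 0 to 374 when each mouse was left out, with 374 without NR mouse 1 and 1 without NR mouse 3. Those of the male fit included Aldh1a1, Cyp4a14, Cbr1, Ugt1a1, Ehhadh, Gm10639 and Ugt1a2. DESeq2 and the fit of 32 mice shared 37 genes (59.7% and 48.1% of each). The labels do not say whether replicate numbers mark pairs, and they were not treated as such. Of the 4 same-numbered pairs 2 correlated over 0.1 (r from -0.068 to 0.323), and 2 of 4 NR mice correlated best with their own number. So few mice cannot decide whether the numbers mark pairs. With the replicate block 0 genes passed. In female Alport mice 72 genes became 728 in DESeq2 and 9 to 163 with a mouse left out, and in control males 654 became 1654 in DESeq2, 413 with the replicate block and 111 to 1863 with a mouse left out. Interactions were 1 gene by sex and 20 by genotype in DESeq2, and 0 to 784 by genotype with a mouse left out, 784 without NR mouse 1. Sirt3 changed sign with the replicate block (-0.033) and in limma-voom (-0.024), as did Hbb-bs (-0.57 and -0.43). With a mouse left out, signs turned for Cpt1a (-0.080 to 0.13), Ppara (-0.025 to 0.22), Nmrk1 (-0.18 to 0.015), Sirt3 (-0.19 to 0.21), Slc34a1 (-0.38 to 0.26), Col4a3 (-0.19 to 0.032), Phgdh (-0.50 to 0.84), C3 (-0.62 to 0.13) and Cdkn1a (-0.095 to 1.48). The causes were not tested. Of 640 list medians under alternatives 13 moved by more than the spread between mice, a measure that the wide spread on NR makes lenient: leaving out NR mouse 1 moved the median of matrix genes from -0.43 to -1.07 and turned the sign of that of de novo NAD synthesis (-0.05 to 0.14). The difference on component 1 was -25.2 to -53.4 with a mouse left out. The sign of a component is arbitrary, so only the size of this difference can be read. Chi-square over degrees of freedom, 1 for counting error alone, was 24.4 to 172 between NR mice and 17.7 to 42.3 between vehicle mice. Cd3e and Gulo, under 1 CPM in some mice, rest on few reads.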

Other observations

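Of 18 genes of the circadian clock 10 were higher on NR (median log2 fold change 0.08). Of the 18, 5 had an unadjusted p under 0.05 (5.01% of all genes) and 2 lay in all 4 NR mice below all vehicle mice (1.45% of all genes). Per1, a repressor of the clock that also responds to glucocorticoids, was at 84.8, 96.3, 101 and 44.6 CPM on NR and 38.1 to 53.1 CPM on vehicle, where NR mouse 4 lay inside the vehicle range. Dbp, a clock-driven transcription factor, was at 97.2, 79.5, 23.1 and 131 CPM on NR and 135 to 168 CPM on vehicle, without overlap. Flt1, a VEGF receptor of endothelium, was at 83.9, 95.0, 126 and 84.8 CPM on NR and 64.8 to 74.7 CPM on vehicle, while Egfl7, a secreted endothelial factor, was at 34.0 to 41.8 CPM on NR and 44.8 to 50.2 CPM on vehicle. Neither overlapped between the groups, and they differed in opposite directions, by 0.45 ± 0.15 and -0.28 ± 0.10 (SE, log2; adjusted p = 0.9 and 0.917, edgeR). Gulo, of vitamin C synthesis, was near the limit of detection, at 0.154, 0.405, 0.371 and 0.582 CPM on NR and 0.972, 1.99, 1.18 and 3.09 CPM on vehicle.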
